A study of Penicillium oxalicum with 6 samples.

Results

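The comparison described here is that of an mtr23B knockout strain of the filamentous fungus Penicillium oxalicum, Dmtr23B, with M12, taken as its parent, in glucose medium. The genes compared were those listed under a PDE identifier that reached at least 10 TPM in either library, 5599 of 8902 identifiers. TPM here stands for tags per 1000000 tags of the library, with no division by gene length, so a level is a share of tags. M12 requires uracil through a pyrG mutation and was obtained from the wild-type strain 114-2, and whether Dmtr23B is also an auxotroph is not given in the sources used here. Both strains were started from conidia in Vogel's medium, whose carbon source was 2% glucose, and kept at 30 °C for 20 h. The mycelia were then moved to fresh medium of the same composition, and RNA was taken after 24 h. Each strain has 1 library made by digital gene expression, an assay that sequences a short tag next to an NlaIII site of each transcript. No difference below therefore has a replicate check, no test was possible, and strain, culture and library preparation cannot be told apart. The text calls a gene higher or lower in Dmtr23B when its level on the TPM + 1 scale differed at least 2-fold. No row of the table names mtr23B, so the loss of its transcript was not checked here.

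Filamentous fungi take up sugars, amino acids and peptides through families of membrane transporters, many of which respond to the quality of the carbon and nitrogen supply. They also make secondary metabolites, small molecules not needed for growth, with enzymes such as cytochrome P450 monooxygenases whose genes often lie side by side in clusters. Penicillium oxalicum is known as a producer of secreted enzymes that break down plant cell walls, and genes of that kind are usually little expressed on glucose.

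In the Dmtr23B library 2013784 tags were assigned to genes and in the M12 library 2048846, 60.1% and 61.0% of all tags. At this depth 10 TPM corresponds to 33.5 tags in Dmtr23B and 33.6 in M12. The measured gene nearest above the minimum reached 10.12 TPM (PDE_00789) and the unmeasured one nearest below it 9.85 TPM (PDE_00288). Ratios are given with exact 95% intervals from the tag counts, which cover counting error only. Tags amplified by PCR without molecular identifiers are not independent molecules, so the intervals may be too narrow even for that error. A gene with no tags was set against a floor of 3 tags in that library, 0.895 TPM in Dmtr23B and 0.893 TPM in M12. In mycelium extracted whole, fewer cells of a type and less RNA per cell cannot be told apart. Genes of conidiation, the formation of asexual spores, were used as markers of another cell type. The descriptions matched 6 genes, which summed to 1456 TPM in Dmtr23B and 2630 TPM in M12. The match PDE_04937 is a dynactin subunit of the cytoskeleton, and without it 5 genes, of which 4 were measured, summed to 1441 and 2616 TPM. The regulator BrlA (PDE_00087) had 5.37 TPM in Dmtr23B and 90.5 TPM in M12, and Arp1 (PDE_04496), a scytalone dehydratase of conidial pigment synthesis, had 11.9 and 186 TPM. The conidial hydrophobin RodA (PDE_00021) had 1388 TPM in Dmtr23B and 1587 TPM in M12, the regulator WetA (PDE_08333) had 8 and 3 tags, and no description matched AbaA. The share of these markers in the differences below was not tested.

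As shares of the library, more genes were higher than lower in Dmtr23B, but the large differences were mostly decreases. Of the 5599 measured genes, 817 were higher (14.6%) and 572 lower (10.2%), 1389 in all (24.8%). The median gene was 0.32 higher on the log2 scale, 1.25-fold, with 3728 genes above 0 and 1871 below. Set against that median, 436 genes were higher (7.79%) and 782 lower (14%), 1218 in all (21.8%), so the split between directions depends on the scaling. It also turned when the tags of PDE_09832, described next, were left out of the totals. At 4-fold or more, 153 genes were higher (2.73%) and 292 lower (5.22%), or 101 (1.8%) and 353 (6.3%) after scaling. At 8-fold or more, 44 were higher (0.786%) and 167 lower (2.98%), or 30 (0.536%) and 198 (3.54%) after scaling. At 16-fold or more these were 14 (0.25%) and 79 (1.41%), or 10 (0.179%) and 107 (1.91%) after scaling. The middle 90% of genes lay between -2.10 and 1.55 (log2), and the extremes were -8.01 for PDE_03956 and 5.92 for PDE_07786. The interval of the tag ratio excluded 1 for all 817 and all 572 genes, which the minimum and the 2-fold rule fix in advance. It lay wholly beyond 2-fold for 372 and 421 of them.

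**Figure D1:**
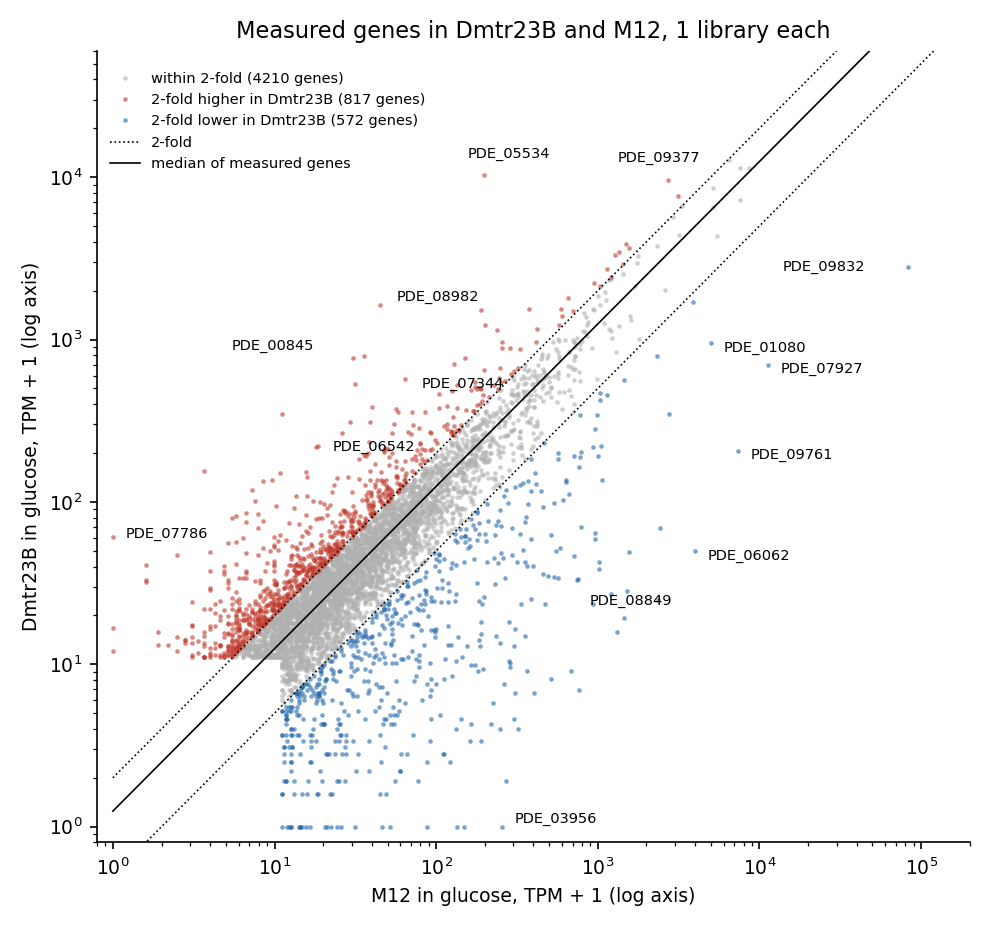
Level of each measured gene in Dmtr23B (vertical) and M12 (horizontal), as TPM + 1 on log axes, 1 library each. Red points are the 817 genes at least 2-fold higher in Dmtr23B and blue points the 572 at least 2-fold lower; the blue points spread farther from the diagonal than the red, and PDE_05534 and PDE_09832 stand alone at high level.

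**Figure D2:**
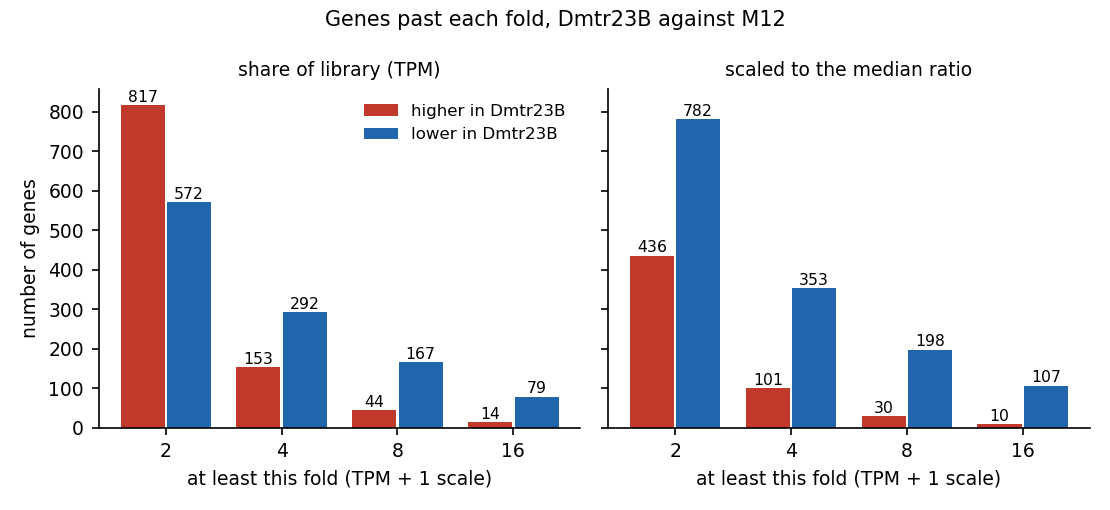
Number of measured genes higher (red) and lower (blue) in Dmtr23B past 2-, 4-, 8- and 16-fold on the TPM + 1 scale, as shares of the library on the left and after scaling to the median ratio on the right. Higher genes are the more numerous only at 2-fold without scaling, 817 against 572; at 8-fold there are 44 higher and 167 lower, or 30 and 198 after scaling.

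The 10 most abundant genes of each library took 15.3% of the tags assigned to genes in Dmtr23B and 24.2% in M12. PDE_09832, annotated as a structural part of the cell wall, alone took 0.465% and 13.5%, a larger difference than that of the 10 genes together. These shares therefore do not show a more even spread of tags over the other genes in Dmtr23B. In Dmtr23B 5158 genes reached 10 TPM, and in M12 4936. Among genes with means of 10 to 100 TPM, 13.3% to 14.6% were higher and 7.46% to 8.26% lower. At 100 to 300 TPM these shares were 12.1% and 14.2%, at 300 to 1000 TPM 16.5% and 16.9%, and among the 63 genes above that 23.8% and 17.5%. Genes from 300 TPM upwards thus lay past 2-fold more often in both directions than those of 10 to 100 TPM. Measured genes with means below 10 TPM had 24.2% higher and 22.1% lower. Such a gene was measured only because either library reached 10 TPM, so the other library lay below 10 TPM. The minimum thus selects for differences among these genes, and their shares cannot be compared with those of more abundant genes. Among the 10 genes with most tags in either library, the manganese superoxide dismutase PDE_00326, which removes superoxide in mitochondria, was nearly level, at 7234 TPM in Dmtr23B and 7621 TPM in M12. The copper transporter of the Ctr family PDE_05901 had 8547 and 5144 TPM, and PDE_09166, annotated only with hydrolase activity, 12698 and 6522 TPM, both within 2-fold. PDE_00327, without description, had 11438 and 8574 TPM, and PDE_03437, annotated with transferase activity, 11368 and 7594 TPM. PDE_05882, which carries no description, had 7608 TPM in Dmtr23B and 3127 TPM in M12 and was higher.

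Genes annotated for the uptake of peptides, sugars and amino acids were higher in Dmtr23B in a larger share than measured genes at large. Among the genes with most tags, the highest fold upwards was that of PDE_05534, annotated with transporter activity and oligopeptide transport, a process that brings short peptides into the cell. It had 34615 tags, 10329 TPM, in Dmtr23B and 664 tags, 198 TPM, in M12, a 52.3-fold difference (48.4 to 56.5). Only 1 other measured gene carries the term oligopeptide transport, PDE_06899, described as an oligopeptide transporter and chosen after its values were seen, with 94.9 and 21.1 TPM. Both of these peptide transporter genes were higher, and together they had 10424 TPM in Dmtr23B and 219 TPM in M12.

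Of 21 measured genes of carbohydrate transport, 10 were higher (47.6%) and 2 lower (9.52%), with a median of 0.91 (log2), or 0.59 after scaling to the median ratio, where 9 were higher and 4 lower. Their levels summed to 14156 TPM in Dmtr23B and 4901 TPM in M12, and without PDE_09377, the most abundant, to 4592 and 2194 TPM. PDE_09377, described as a sugar transporter, had 9564 TPM in Dmtr23B and 2708 TPM in M12 and was 3.53-fold higher (3.45 to 3.62). Among the largest folds, a putative monosaccharide transporter of the major facilitator family (PDE_01388) had 55.2 TPM in Dmtr23B and 4.17 TPM in M12. A putative maltose permease (PDE_03571), which would import a sugar released from starch, had 83.3 and 6.85 TPM. PDE_03313 and PDE_00771, known only by this annotation, had 704 and 126 TPM in Dmtr23B, against 128 and 22.3 TPM in M12. A facilitated glucose transporter (PDE_00652), chosen after its values were seen, had 1809 TPM in Dmtr23B and 657 TPM in M12. Outside the class by annotation, the maltose transporter PDE_09994 had 307 TPM in Dmtr23B and 37.8 TPM in M12. The class was not uniform. PDE_03140 was 15.6-fold lower (8.50 to 31.8), with 3.28 TPM in Dmtr23B and 51.2 TPM in M12, and PDE_05309 had 1.49 and 15.5 TPM.

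Amino acid transmembrane transport had a median of 0.91 (log2), 0.59 after scaling, with 10 of 22 measured genes higher (45.5%) and 3 lower (13.6%), or 7 and 5 after scaling. Gap1 (PDE_00845), a permease of broad range that responds to the nitrogen source in yeast, had 767 TPM in Dmtr23B and 29.5 TPM in M12, 26.0-fold higher (21.3 to 32.1). The class summed to 2583 TPM in Dmtr23B and 1362 TPM in M12, and without Gap1 to 1816 and 1333 TPM, so most of the difference in the sum was that of 1 gene. PDE_01350, without description, had 193 TPM in Dmtr23B and 34.8 TPM in M12, and a putative GabA permease (PDE_00716), a type that imports gamma-aminobutyrate, had 42.7 and 13.4 TPM. In the other direction PDE_04989 had 7.46 TPM in Dmtr23B and 74.1 TPM in M12, and PDE_05523 had 2.39 and 22.6 TPM. Of genes named by description, the permease PDE_03500 had 104 tags in Dmtr23B and 2 in M12, 52.1-fold higher (14.1 to 436), and the putative transporter PDE_00830 had 133 and 2 tags, 66.7-fold higher (18.1 to 556). The 2 tags make both intervals wide.

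Other transporters followed in part. Over all 139 measured genes of transmembrane transport, 46 were higher (33.1%) and 15 lower (10.8%), or 34 and 22 after scaling, with a median of 0.46 (log2), 0.15 after scaling. Their sum was 27930 TPM in Dmtr23B and 18260 TPM in M12, and 18366 and 15552 TPM without PDE_09377, which is counted here too. The phospholipid transporter Git1 (PDE_02513) was 9.50-fold higher (7.09 to 13.0), with 141 TPM in Dmtr23B and 14.9 TPM in M12. An acid phosphatase precursor (PDE_03399), an enzyme type that frees phosphate from organic compounds, was 10.2-fold higher (7.03 to 15.2), with 94.0 and 9.23 TPM. A putative sodium/phosphate symporter (PDE_07679), chosen after its values were seen, had 264 TPM in Dmtr23B and 52.4 TPM in M12. These 3 genes were thus higher by 5.04- to 10.2-fold. PDE_09636, the only other measured gene annotated with phosphate ion transport, was within 2-fold, with 26.9 TPM in Dmtr23B and 20.5 TPM in M12. The ABC multidrug transporter PDE_06542, of a family that pumps out foreign compounds, had 218 TPM in Dmtr23B and 17.0 TPM in M12, 12.8-fold higher (9.78 to 17.1).

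**Figure D3:**
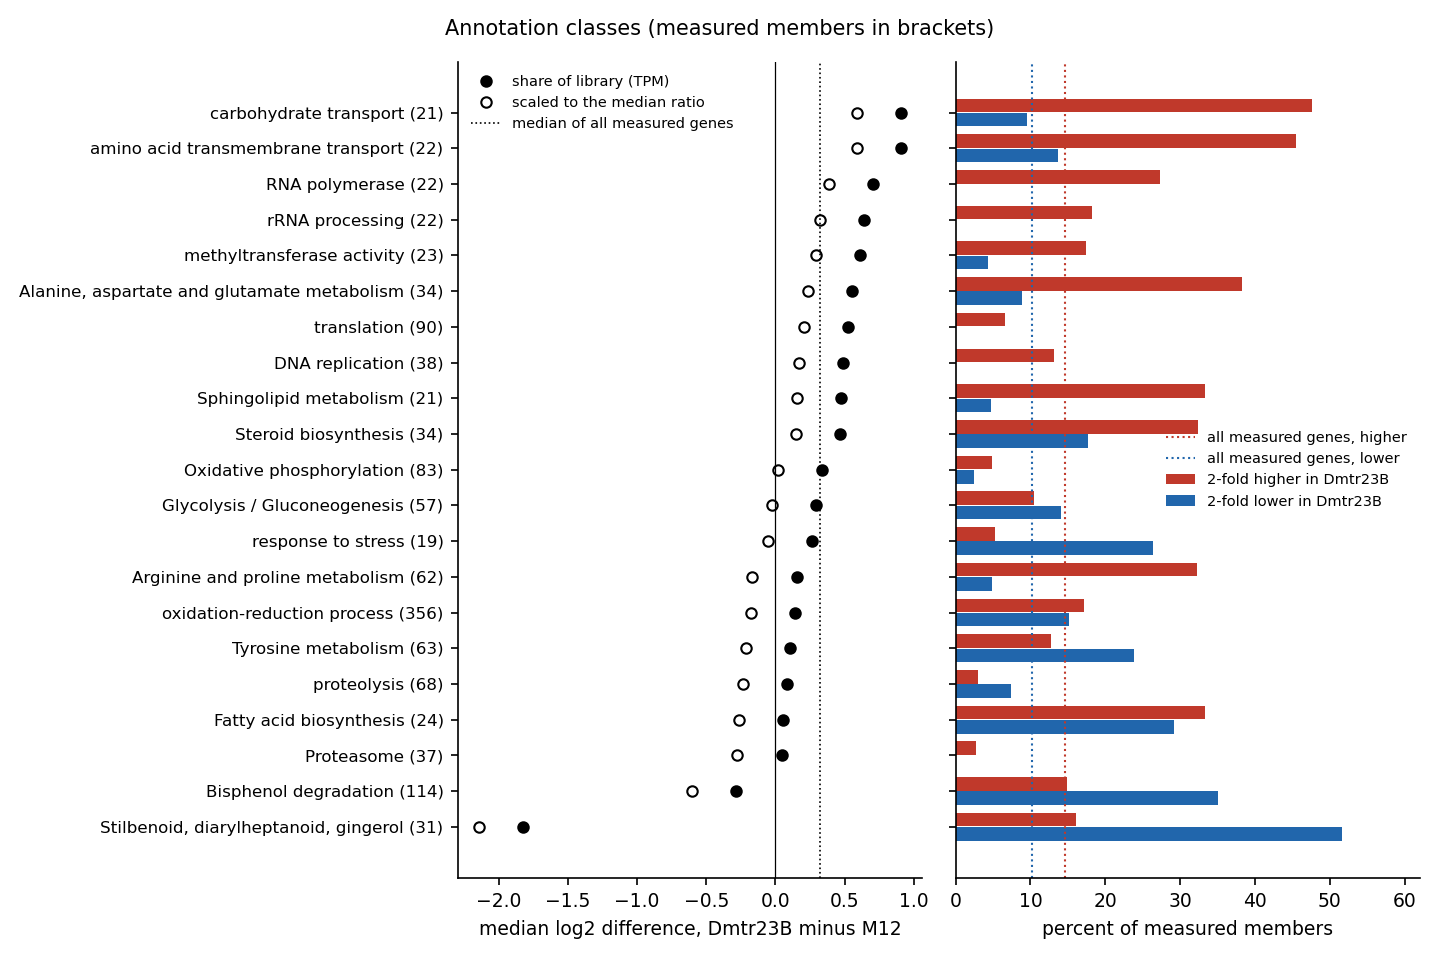
Annotation classes with their number of measured members. On the left, the median log2 difference (Dmtr23B minus M12) as share of library (filled) and scaled to the median ratio (open), beside the median of all measured genes (dotted, 0.32). On the right, the percent of members at least 2-fold higher (red) and lower (blue) in Dmtr23B, beside the percent over all measured genes (dotted, 14.6% and 10.2%). The transport classes have 47.6% and 45.5% of members higher, and the stilbenoid class has 51.6% lower.

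Of the classes of amino acid metabolism, those around arginine and glutamate held a larger share of higher genes than measured genes at large. Some other classes did too, and others did not. In lysine degradation 9 of 36 genes were higher (25%) and 4 lower (11.1%), or 3 and 5 after scaling. In valine, leucine and isoleucine degradation 9 of 46 were higher (19.6%) and 6 lower (13.0%), or 3 and 8 after scaling. In cysteine and methionine metabolism 3 of 42 genes were higher (7.14%) and 5 lower. In arginine and proline metabolism 20 of 62 measured genes were higher (32.3%) and 3 lower (4.84%), or 11 and 4 after scaling, while the median was only 0.15 (log2) and -0.17 after scaling. In alanine, aspartate and glutamate metabolism 13 of 34 were higher (38.2%) and 3 lower (8.82%), or 5 and 4 after scaling, with a median of 0.55, 0.23 after scaling. The highest fold upwards in both was that of the glutamate dehydrogenase gdhA (PDE_06117), which in Penicillium chrysogenum fixes ammonium into glutamate. It had 266 TPM in Dmtr23B and 25.0 TPM in M12, a 10.6-fold difference (8.49 to 13.4). Argininosuccinate synthase (PDE_09048), an enzyme of the last steps to arginine, was next with 138 and 32.2 TPM, 4.29-fold (3.47 to 5.34).

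Other enzymes of arginine synthesis were looked up after their values were seen. The putative acetylglutamate kinase PDE_03458, an early enzyme of the pathway, had 126 TPM in Dmtr23B and 48.2 TPM in M12. Ornithine carbamoyltransferase (PDE_03642), which makes citrulline, had 50.1 and 19.9 TPM. Argininosuccinate lyase (PDE_01650), which releases arginine, had 37 tags in Dmtr23B and 15 in M12. All of these were higher by 2.47- to 2.61-fold in tags, and ornithine carbamoyltransferase and argininosuccinate lyase came within 2-fold after scaling. Of the enzymes that make amides, also picked after their values were seen, glutamine synthetase (PDE_08346) had 51.9 TPM in Dmtr23B and 25.0 TPM in M12, and asparagine synthetase (PDE_06146) 84.2 and 39.9 TPM. Both were within 2-fold after scaling. A gene similar to glutamate decarboxylase (PDE_01184), an enzyme that turns glutamate into gamma-aminobutyrate, went the other way, with 0 tags in Dmtr23B and 83 in M12, at least 27.6-fold lower by the floor of 3 tags (exact lower limit 21.9). In the class named nitrogen metabolism 6 of 33 genes were higher and 4 lower, or 3 and 6 after scaling, with a median of 0.10, -0.21 after scaling, so it did not stand apart.

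Among classes of RNA and protein synthesis, RNA polymerase, rRNA processing and translation had medians above that of all genes, 0.32 (log2), while translational initiation (0.27) and mRNA processing (0.12) lay below it. In the class RNA polymerase, the subunits of the enzymes that transcribe genes, 6 of 22 measured genes were higher (27.3%) and none lower, with a median of 0.71 (log2), 0.39 after scaling, where 5 were higher. The class summed to 1379 TPM in Dmtr23B and 581 TPM in M12, and to 995 and 542 TPM without its most abundant gene. That gene, a subunit of RNA polymerase III described as RPC10 (PDE_02595), was 9.85-fold higher (8.22 to 11.9), with 384 TPM in Dmtr23B and 39.0 TPM in M12. No other member differed as much. PDE_08819 had 151 and 44.7 TPM, PDE_05819 50.1 and 18.2 TPM, and PDE_05879 26.3 and 9.23 TPM.

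Genes of rRNA processing, the trimming of ribosomal RNA, had a median of 0.64 (log2), 0.32 after scaling, with 4 of 22 higher and none lower, or 2 and none after scaling. The 18.2% that were higher is near the 14.6% of all measured genes. The higher ones included the putative helicase Hca4 (PDE_07992), with 20.9 TPM in Dmtr23B and 5.66 TPM in M12, and the putative ribosome biogenesis protein Erb1 (PDE_06783), with 19.1 and 6.55 TPM. For translation, a class mostly of ribosomal proteins, 6 of 90 measured genes were higher (6.67%) and none lower, and after scaling none was higher and 2 were lower. Its median of 0.53, 0.21 after scaling, came from small differences, above 0 in 77 of the 90 genes, or 65 after scaling. The ribosomal protein S8-A (PDE_02864), the most abundant, had 1970 TPM in Dmtr23B and 1111 TPM in M12. The sum of the class was 24796 TPM in Dmtr23B and 17148 TPM in M12. Protein heterodimerization activity, a class that holds histones, had 5 of 16 genes higher (31.3%) and none lower, or 2 and none after scaling, with a median of 0.62, 0.30 after scaling. Histone H2B (PDE_01489) had 2711 TPM in Dmtr23B and 1137 TPM in M12, and histone H3 (PDE_00233) 293 and 110 TPM.

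Of other basic functions, the pathway DNA replication had a median of 0.49 (log2), 0.17 after scaling, above that of all genes. In it 5 of 38 genes were higher and none lower, and none was past 2-fold after scaling. The others described here had medians near or below that of all genes. Oxidative phosphorylation, the respiratory chain and ATP synthase, had a median of 0.34 (log2), 0.02 after scaling, with 4 of 83 genes higher and 2 lower. The proteasome, which breaks down proteins, had a median of 0.04, -0.27 after scaling, with 1 of 37 higher and none lower, or none and 3 after scaling. The citrate cycle had 6 of 34 genes higher and 1 lower, or 2 and 3 after scaling, with a median of 0.25, -0.07 after scaling. The sign of each of the last 2 medians thus turned with the scaling. In glycolysis and gluconeogenesis 6 of 57 genes were higher and 8 lower, or 4 and 11 after scaling, and its median of 0.30 became -0.02. The largest difference in this class was a decrease, of -5.53 (log2), while its highest member stood at 2.00. The examples given here come from the 6 higher members, while the 8 lower ones, the more numerous, are not named. One was a hexokinase family protein (PDE_08226), of the enzymes that phosphorylate glucose, with 21.5 TPM in Dmtr23B and 7.14 TPM in M12. Another was the putative pyruvate dehydrogenase E1 beta subunit PdbA (PDE_01446), at the entry to the citrate cycle, with 76.4 and 28.6 TPM.

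Among lipid classes, those of steroid and fatty acid biosynthesis held genes far apart in both directions. In steroid biosynthesis 11 of 34 genes were higher (32.4%) and 6 lower (17.6%), or 8 and 7 after scaling, with a median of 0.46 (log2), 0.15 after scaling. PDE_03499, without description and annotated to the ribosome as well, was 22.9-fold higher (19.0 to 27.8), with 791 TPM in Dmtr23B and 34.5 TPM in M12. The C-4 methylsterol oxidase PDE_04616, an enzyme of ergosterol synthesis, was 8.34-fold higher (5.16 to 14.2), with 47.2 and 5.66 TPM. The sterol demethylase Cyp51B (PDE_06265), another enzyme of that pathway and chosen after its values were seen, had 19.4 TPM in Dmtr23B and 5.66 TPM in M12. The 3 lowest members were not described as enzymes of sterols. PDE_00811, a P450 match to AtmQ, had 1.79 TPM in Dmtr23B and 59.8 TPM in M12. PDE_09230 and PDE_01064, without description, had 13.1 and 3.88 TPM in Dmtr23B, against 184 and 53.9 TPM in M12. All 3 belong to runs of successive locus numbers described further on.

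In sphingolipid metabolism 7 of 21 genes were higher (33.3%) and 1 lower (4.76%), or 3 and 1 after scaling, with a median of 0.47 (log2), 0.15 after scaling. The acid sphingomyelinase PDE_06122, which splits sphingomyelin, had 149 TPM in Dmtr23B and 9.82 TPM in M12 and was 15.2-fold higher (10.7 to 22.3). A putative serine palmitoyltransferase (PDE_00765), the first enzyme of sphingolipid synthesis, had 15 tags in Dmtr23B and 43 in M12 and was lower. Fatty acid biosynthesis had 8 of 24 genes higher (33.3%) and 7 lower (29.2%), or 3 and 9 after scaling. Its lower members included the 17-beta-hydroxysteroid dehydrogenase PDE_09239, with 14.9 TPM in Dmtr23B and 1319 TPM in M12, 88.4-fold lower (66.9 to 119). Another was the short-chain dehydrogenase PDE_00799, with 6.56 TPM in Dmtr23B and 98.2 TPM in M12. Both belong to runs of successive locus numbers described further on. Higher members of the class included PDE_04641, with 79.1 TPM in Dmtr23B and 4.46 TPM in M12, and PDE_09090, with 225 and 78.3 TPM. Neither of these has a description.

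Of all classes with at least 10 measured genes, the pathway named stilbenoid, diarylheptanoid and gingerol biosynthesis had the lowest median, -1.82 (log2) and -2.14 after scaling. The name is that of plant pathways. Here 15 of its 31 measured members are described as cytochrome P450, monooxygenase or hydroxylase, enzymes that add oxygen to small molecules, and the other 16 have no description. In Dmtr23B 16 of the 31 were lower (51.6%) and 5 higher (16.1%), or 17 and 4 after scaling. Of the 16 lower ones, 9 belong to runs of successive locus numbers described further on. The summed level was 1365 TPM in Dmtr23B and 4384 TPM in M12. The conidiation markers BrlA, Arp1 and Ayg1 (PDE_09452; 32.5 TPM in Dmtr23B and 752 TPM in M12) were lower in the same library, while RodA was within 2-fold and WetA had too few tags to compare. Their part in these differences was not tested.

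The most extreme member, PDE_03956, had 0 tags in Dmtr23B and 861 in M12, at least 286-fold lower by the floor of 3 tags (exact lower limit 232). PDE_10010, a benzoate 4-monooxygenase match, had 0 and 103 tags, and the putative ferulate-5-hydroxylase PDE_10004 had 2.39 TPM in Dmtr23B and 90.8 TPM in M12. The most abundant member, PDE_01395, had 63.6 TPM in Dmtr23B and 953 TPM in M12, 15.0-fold lower (13.1 to 17.3). Decreases were thus found from scarce to abundant members. Abundant members picked after their values were seen were also lower. The bifunctional P450 and P450 reductase PDE_01418, a fusion that carries its own electron donor, had 34.0 and 491 TPM, and PDE_08660, a second benzoate 4-monooxygenase match, 39.4 and 362 TPM. A separate reductase of the kind that feeds electrons to P450 enzymes, the NADPH-ferrihemoprotein reductase PDE_05885, was 30.8-fold lower (21.5 to 45.5), with 9.25 TPM in Dmtr23B and 285 TPM in M12. The 4 members with the highest folds have no description. They were PDE_01198, with 35.2 TPM in Dmtr23B and 3.87 TPM in M12, PDE_01216, with 99.4 and 18.2 TPM, PDE_04265, with 114 and 21.7 TPM, and PDE_02824, with 24.2 and 5.06 TPM.

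Several broad pathway names share these genes. All 31 are also in bisphenol degradation, where they make up 27.2% of 114 members, and in degradation of polycyclic aromatic hydrocarbons, 43.1% of 72. The lower shares of those classes, 40 of 114 genes in the first, are therefore not separate results. The overlap is smaller with heme binding, a class of proteins that hold heme. The 15 shared genes are 48.4% of the stilbenoid class and 28.8% of heme binding. Of the 16 lower genes of the stilbenoid class only 4 carry the term heme binding, so most of its decreases lay outside that term. Heme binding had 11 of 52 genes higher and 11 lower, or 7 and 13 after scaling, with a median of 0.08, -0.24 after scaling.

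**Figure D4:**
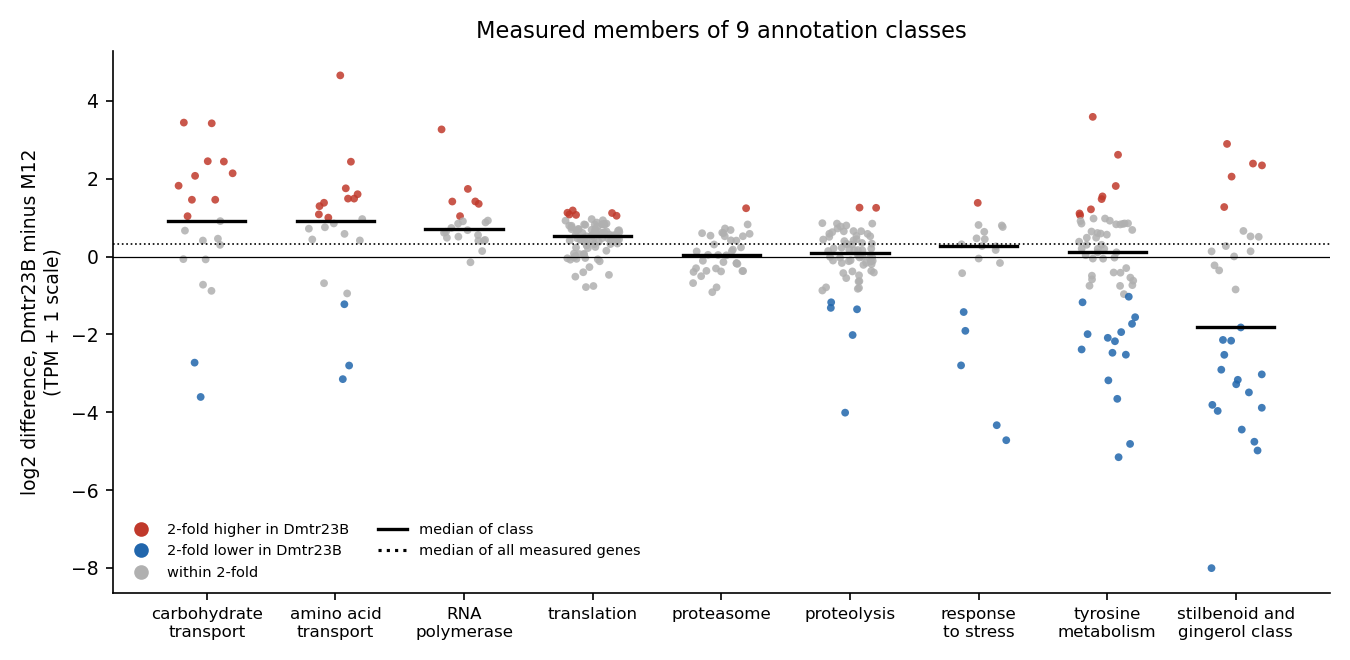
Log2 difference (Dmtr23B minus M12, TPM + 1 scale) of every measured member of 9 annotation classes. Each point is 1 gene, red where at least 2-fold higher and blue where at least 2-fold lower in Dmtr23B; the bar is the class median and the dotted line the median of all measured genes, 0.32. Translation and proteasome genes lie close together, while members of the stilbenoid class run from -8.01 to 2.89.

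In tyrosine metabolism 15 of 63 genes were lower (23.8%) and 8 higher (12.7%), or 19 and 5 after scaling, with a median of 0.11 (log2), -0.21 after scaling. The class summed to 4440 TPM in Dmtr23B and 12351 TPM in M12. Without 4-hydroxyphenylpyruvate dioxygenase (PDE_09761), an enzyme of tyrosine breakdown with 206 TPM in Dmtr23B and 7390 TPM in M12, 35.8-fold lower (33.2 to 38.7), the sums were 4234 and 4961 TPM. Its neighbour PDE_09759, of the same class, had 2 tags in Dmtr23B and 148 in M12. The zinc-binding oxidoreductase PDE_06020 had 0 and 39 tags, and the O-methyltransferase PDE_01069, of enzymes that cap hydroxyl groups, 2.39 and 29.8 TPM. The highest fold upwards was that of the aromatic amino acid aminotransferase PDE_09439, which removes the amino group of such acids, with 37 tags in Dmtr23B and 0 in M12, at least 12.4-fold higher (exact lower limit 9.56). PDE_03554, without description, had 50.7 TPM in Dmtr23B and 7.44 TPM in M12.

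Phenylalanine metabolism, which shares PDE_09761 and PDE_09759, had 7 of 47 genes lower (14.9%) and 5 higher (10.6%), or 9 and 4 after scaling. Outside it by annotation and chosen after its values were seen, the phenylalanine ammonia-lyase PDE_01556, which turns phenylalanine into cinnamate, had 46.0 TPM in Dmtr23B and 294 TPM in M12. Dioxygenases that insert both atoms of oxygen into single donors had 5 of 13 genes lower (38.5%) and 1 higher, or 5 and none after scaling, with a median of -0.26 (log2), -0.58 after scaling. Besides PDE_09761 these included the Psi-producing oxygenase C PDE_04936, whose relatives in aspergilli make oxylipin signals of sporulation, with 3.28 TPM in Dmtr23B and 53.9 TPM in M12, and a putative LigB ring-opening dioxygenase (PDE_03463), with 5.97 and 37.2 TPM. Another was an indoleamine 2,3-dioxygenase (PDE_02071), a type that opens the ring of tryptophan, with 18.8 and 87.5 TPM. The catechol dioxygenase PDE_05239, not a member, was 18.8-fold higher (12.1 to 30.7), with 117 TPM in Dmtr23B and 6.25 TPM in M12. Ring-cleaving enzymes thus differed in both directions.

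Proteolysis as a class held few genes past 2-fold, while single secreted proteases differed greatly and in opposite directions. Of its 68 measured genes 5 were lower (7.35%) and 2 higher (2.94%), or 9 and none after scaling, with a median of 0.09 (log2), -0.23 after scaling. The sum was 8357 TPM in Dmtr23B and 18112 TPM in M12, but 7660 and 6857 TPM without penicillopepsin. Penicillopepsin (PDE_07927), the acid aspartic protease secreted by penicillia, had 697 TPM in Dmtr23B and 11255 TPM in M12, 16.2-fold lower (15.5 to 16.9). The aspartic protease pepA (PDE_07344), a second enzyme of that family that does not carry the term, had 568 TPM in Dmtr23B and 62.8 TPM in M12, 9.04-fold higher (7.84 to 10.5). The 2 aspartic proteases thus differed in opposite directions. Tripeptidyl peptidase A (PDE_01983), an exopeptidase also outside the class and chosen after its values were seen, had 27.8 and 2.98 TPM. Both higher proteases named here thus lie outside the class, whose highest member stood at 1.26 (log2).

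In the class response to stress 5 of 19 genes were lower (26.3%) and 1 higher (5.26%), the same counts after scaling, with a median of 0.26 (log2), -0.06 after scaling. The 4 lowest were small heat shock proteins and chaperones, proteins that hold others in solution or fold them. The 30-kD heat shock protein PDE_00175, with 37.6 TPM in Dmtr23B and 1016 TPM in M12, was 27.0-fold lower (22.6 to 32.5), and the Hsp30/Hsp42 match PDE_02095 was 21.0-fold lower (16.7 to 26.9), with 22.4 TPM in Dmtr23B and 471 TPM in M12. The Hsp12 match PDE_08243 had 2 tags in Dmtr23B and 34 in M12, and the chaperone PDE_00624 had 30.7 and 118 TPM. The member with most tags, PDE_01221, without description, was higher, with 1537 TPM in Dmtr23B and 590 TPM in M12. Heat shock protein 90 (PDE_09149), a chaperone of signalling proteins looked up after the values were seen, was level, with 882 and 914 TPM. In methane metabolism, a class that holds formate dehydrogenase and the catalase CatA here, 7 of 40 genes were lower (17.5%) and 1 higher, or 10 and 1 after scaling, with a median of -0.29, -0.61 after scaling. Formate dehydrogenase (PDE_01080), which oxidises formate to carbon dioxide, had 946 TPM in Dmtr23B and 4996 TPM in M12, 5.28-fold lower (5.09 to 5.49). The spore-specific catalase CatA (PDE_05708), which breaks down hydrogen peroxide in conidia, had 8 tags in Dmtr23B and 57 in M12.

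Carbohydrate classes held genes past 2-fold in both directions. In fructose and mannose metabolism 7 of 68 genes were higher (10.3%) and 15 lower (22.1%), or 4 and 19 after scaling. In starch and sucrose metabolism 12 of 87 genes were higher and 12 lower, or 6 and 16 after scaling, with a median of 0.14 (log2), -0.18 after scaling. The polygalacturonase PDE_03218, which cuts pectin, had 153 TPM in Dmtr23B and 14.6 TPM in M12 and was 10.5-fold higher (7.80 to 14.3). The endo-1,4-beta-xylanase PDE_00752, which cuts xylan and is not a member, had 107 tags in Dmtr23B and 2 in M12, 53.6-fold higher (14.5 to 449). The maltase PDE_04151, which splits maltose to glucose and was chosen after its values were seen, had 1547 TPM in Dmtr23B and 373 TPM in M12, 4.14-fold higher (3.90 to 4.41). The most abundant member, the putative glucan 1,4-alpha-glucosidase PDE_09417, which releases glucose from starch, was lower, with 792 TPM in Dmtr23B and 2314 TPM in M12. Enzymes around starch thus did not move together.

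In amino sugar and nucleotide sugar metabolism 11 of 60 genes were lower (18.3%) and 10 higher (16.7%), or 11 and 8 after scaling. Chitinases, which cut the chitin of the fungal wall, were among the lower ones. The class V chitinase PDE_01779 had 3 tags in Dmtr23B and 184 in M12, the endochitinase PDE_04898 49.5 and 343 TPM, and the putative chitinase PDE_08122, the most abundant member, 453 and 1146 TPM. CHS3 (PDE_08046), whose name is that of a chitin synthase, had 15.5 TPM in Dmtr23B and 98.5 TPM in M12. Enzymes that handle the freed sugar were among the higher ones. The beta-N-acetylhexosaminidase PDE_06511, which splits chitin oligomers, had 135 TPM in Dmtr23B and 38.1 TPM in M12, and the glucosamine-6-phosphate isomerase PDE_00969, which feeds glucosamine into glycolysis, 183 and 32.2 TPM.

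Some of the lower genes had neighbouring locus numbers, taken here as a stand-in for gene order. Counting runs of at least 4 successive measured genes all past 2-fold in the same direction, 10 runs of lower genes held 88 genes, 15.4% of the 572 lower, the longest 20, and 9 runs of higher genes held 37, 4.53% of the 817 higher, the longest 5. Most genes past 2-fold thus lay outside such runs. Of the 20 described genes lowest by their interval 12 lay in lower runs, and of the 20 highest 4 lay in higher runs. The longest, PDE_00789 to PDE_00811, held 3 of the 20 lowest described as phytanoyl-CoA dioxygenase family proteins. Of these PDE_00803 had 0 tags in Dmtr23B and 291 in M12, PDE_00792 5 and 292 tags, and PDE_00806 12 and 477 tags. It also held an aminotransferase (PDE_00791) with 0 tags in Dmtr23B and 152 in M12, and PDE_00798, described only as a negative regulator, with 10 and 441 tags. The next longest, PDE_09228 to PDE_09246, held the stcQ match PDE_09234, with 41.5 TPM in Dmtr23B and 1015 TPM in M12. It also held PDE_09238, with a metallo-beta-lactamase domain, which had 10 tags in Dmtr23B and 1082 in M12. Members of such a run are not independent of each other in a class that holds several of them.

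Shorter runs held other kinds of genes. From PDE_01064 to PDE_01080, 9 measured genes had a median of -3.61 (log2) and summed to 986 TPM in Dmtr23B and 6054 TPM in M12, and most of that sum was formate dehydrogenase. From PDE_09758 to PDE_09764, 6 genes had a median of -4.48, among them PDE_09761 and a cytochrome B2 match (PDE_09762) with 97.3 TPM in Dmtr23B and 533 TPM in M12. From PDE_05885 to PDE_05889, 5 genes summed to 181 TPM in Dmtr23B and 1361 TPM in M12, including the P450 reductase above and a P450 (PDE_05886) with 61.8 and 511 TPM. A reductase and an enzyme of the type it serves thus lie in the same run. Of the higher runs, PDE_05572 to PDE_05578 held 5 genes without description, with a median of 2.27 and sums of 1670 TPM in Dmtr23B and 318 TPM in M12. Another, PDE_06117 to PDE_06123, held gdhA and the acid sphingomyelinase, and PDE_05233 to PDE_05240 held the catechol dioxygenase and an alpha/beta hydrolase (PDE_05240) with 162 tags in Dmtr23B and 10 in M12.

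**Figure D5:**
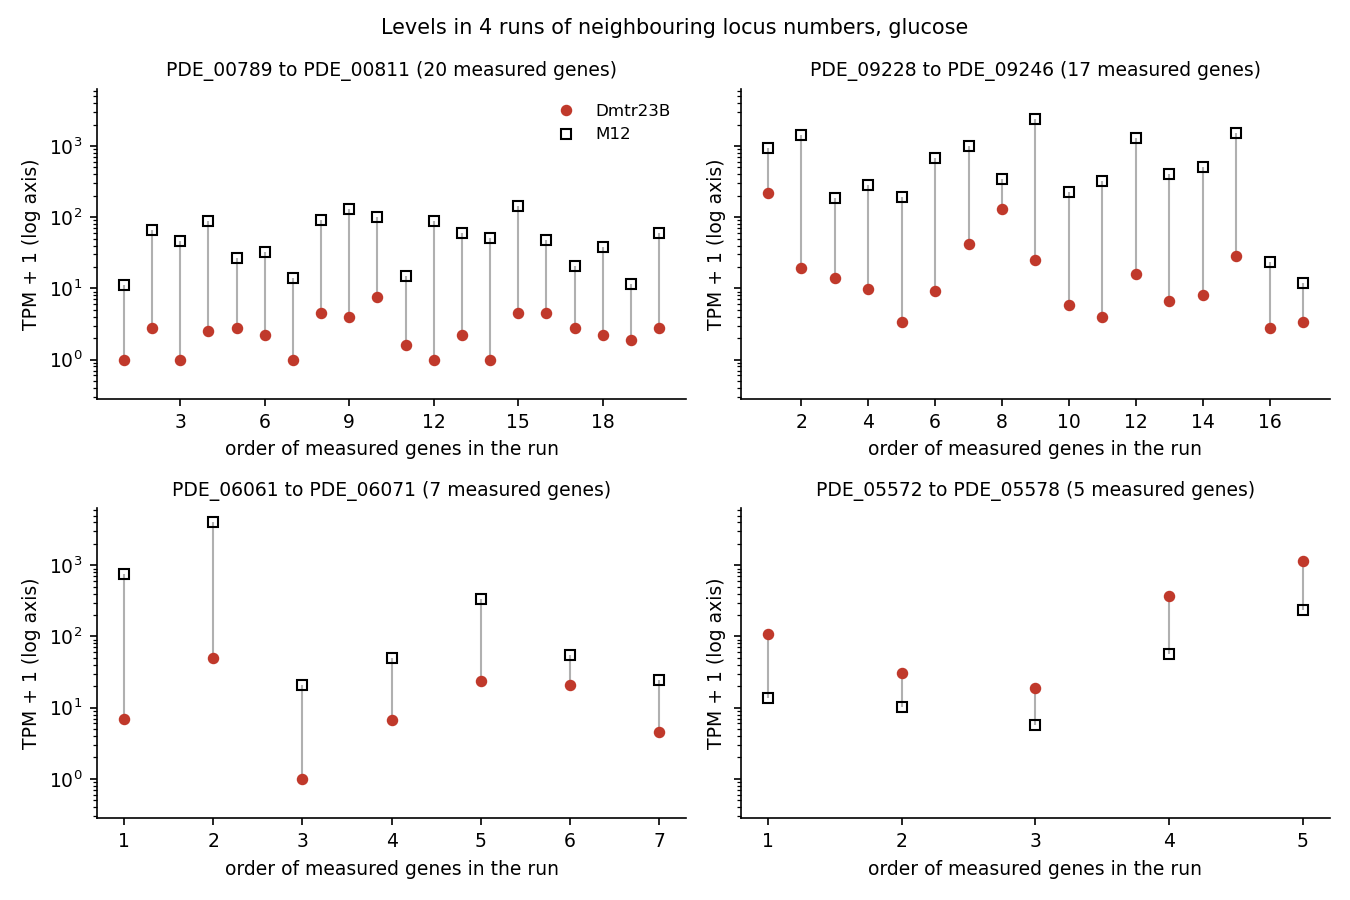
Levels in Dmtr23B (red circles) and M12 (open squares), as TPM + 1 on log axes, of the measured genes of 4 runs of neighbouring locus numbers, in locus order. In the first 3 runs, of 20, 17 and 7 genes, every circle lies below its square; in the run from PDE_05572 to PDE_05578 all 5 circles lie above.

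Among the remaining genes singled out by size, the cipC protein (PDE_06802), named in Aspergillus nidulans for its induction by the antibiotic concanamycin, was 8.10-fold higher (7.45 to 8.81), with 1516 TPM in Dmtr23B and 187 TPM in M12. The extracellular proline-serine rich protein PDE_02145, with 308 TPM in Dmtr23B and 28.3 TPM in M12, was 10.9-fold higher (8.81 to 13.6). The mitochondrial cyanide-resistant terminal oxidase PDE_08849, the alternative oxidase that passes electrons to oxygen without the cytochrome chain, was 23.4-fold lower (19.3 to 28.6), with 31.9 TPM in Dmtr23B and 746 TPM in M12. The L-ascorbate oxidase PDE_02128, with 67.7 TPM in Dmtr23B and 2436 TPM in M12, was 36.0-fold lower (31.5 to 41.2).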

How the data were processed

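Digital gene expression tags of mycelium in glucose were compared between Dmtr23B and M12, 1 library each, grouped by the strain label. The authors deposited a table of raw tag counts per gene and of TPM, per the file headers, which also give the library totals. The deposited TPM equals count times 1000000 over that total to within 0.005, the rounding of the file. The sources used here do not give the tag mapper, genome build, annotation version, strand use or the rule for tags shared by genes, so values of overlapping genes and of gene family members are uncertain. Gene names are the table's descriptions, and no coordinates are given. The complemented strain and the libraries in cellulose and wheat bran were not used here.

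Differences are of log2(TPM + 1), Dmtr23B minus M12, over genes with at least 10 TPM in either library, and a gene counts as higher or lower at 2-fold. The pseudocount of 1 TPM understates the fold of low genes. Scaling to the median ratio subtracts the median of these differences. Ratios of counts have exact conditional binomial 95% intervals. Classes are the terms of GO Function, GO Process and Pathway with at least 10 measured genes (86, 55 and 180). No set test was run, and class counts and medians are read beside those of all measured genes. A run is at least 4 successive measured genes past 2-fold in the same direction.

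Genes named are the 20 highest and 20 lowest with a description, ranked by the interval bound nearest 1, the 10 most abundant, and in each class described up to 4 members in each direction and the most abundant. Others are said to be chosen after their values were seen. Classes described come from those with extreme medians or shares, 6 per list, and from basic functions listed by name. Cysteine and methionine metabolism, lysine degradation, fructose and mannose metabolism, translational initiation and mRNA processing were added after their values were seen. The members, lists and classes were chosen with earlier results of these data known. With 1 library a strain there are no residual degrees of freedom, so no count model was fitted. edgeR 4.0.16 in R 4.3.3 gave only TMM factors. Python 3.11.15 with scipy 1.17.1 did the rest, tested on simulated data. The alternatives were other scalings, minimums and pseudocounts and calls by the interval.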

Additional observations from a re-analysis of the deposited data

How the results depend on the processing

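The count of higher genes was 817. It was 436 when scaled to the median ratio, 471 with edgeR TMM factors, 513 with a minimum of 30 TPM and 372 when the whole interval had to lie beyond 2-fold. Other settings gave 559 to 1151. The count of lower genes, 572, was 896 with no minimum and 378 with a minimum of 30 TPM, where fewer genes were measured (3344). Other settings gave 421 to 782, among them 782 by the median ratio and 757 by TMM. The split between directions thus turned from more higher to more lower genes under both, as it did when the whole interval had to lie beyond 2-fold (372 and 421) and relative to tags of genes other than PDE_09832 (559 and 699). The median difference of 0.32 (log2) was 0.037 with TMM factors, 0.21 with no minimum, and 0.13 relative to tags of genes other than PDE_09832, the last setting chosen after seeing the data; the cause was not tested. Scaling lowers every class median by the same 0.32, so that the 21 of 80 medians that changed sign are those between 0 and that value. With a minimum of 30 TPM 9 medians changed sign. Of the 49 genes named as highest, lowest or most abundant, 44 were past 2-fold. Of these 43 stayed so when scaled and 44 with a pseudocount of 5 TPM. Most were picked for their large folds, so this was largely fixed in advance. Other genes named in the text are not covered by these counts. No paired analysis was possible because each strain has 1 library in glucose and the labels give no replicate numbers. For the same reason no library could be left out. Depth limits genes near 10 TPM, about 34 tags, and ratios against fewer than 10 tags have wide intervals.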

Other observations

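Terms with fewer than 10 measured genes were not described as classes, but some of their genes differed greatly; those given here were chosen after their values were seen. The only 2 genes with oxaloacetase activity, an enzyme that splits oxaloacetate into oxalate and acetate, were PDE_06062, with 48.6 TPM in Dmtr23B and 4020 TPM in M12, and PDE_06061, with 5.97 and 759 TPM. They were 82.7-fold lower (70.8 to 97.1) and 127-fold lower (82.1 to 208). They have successive locus numbers and open a run of 7 lower genes that ends at PDE_06071, a putative multidrug transporter. In that run the putative pectate lyase PDE_06068, of enzymes that cut pectin, had 22.4 TPM in Dmtr23B and 332 TPM in M12.

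Other genes of large difference carry no description. PDE_01717, annotated to sesquiterpenoid synthesis, had 0 tags in Dmtr23B and 498 in M12, at least 166-fold lower by the floor of 3 tags (exact lower limit 134). Its neighbours PDE_01716 and PDE_01718 had 19 and 12 tags in Dmtr23B, against 1031 and 1010 in M12. PDE_08982 was 37.1-fold higher (31.5 to 44.0), with 1635 TPM in Dmtr23B and 44.1 TPM in M12. PDE_01180, annotated with metal ion transport, was 17.4-fold higher (14.2 to 21.4), with 528 and 30.4 TPM. PDE_07786 had 199 tags in Dmtr23B and 0 in M12, at least 66.5-fold higher (exact lower limit 53.6). Among the 1917 measured genes with no term of any of the 3 annotation columns, 284 were higher (14.8%) and 265 lower (13.8%). Among the 3682 with such a term, 533 were higher (14.5%) and 307 lower (8.34%). Genes without annotation were thus lower in a larger share of cases, while the shares of higher genes were alike.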
